A study of Rattus norvegicus with 96 samples.

Results

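The genes described here encode the chains of the rat major histocompatibility complex (MHC) class II molecules and the chaperone that assembles with them. The 5 members were RT1-Da, RT1-Db1, RT1-Ba, RT1-Bb and Cd74. They were chosen by gene symbol, as every probe set annotated to 1 of these symbols alone, which gave 10 probe sets for 5 of the 14217 genes measured by single-symbol probe sets. A probe set is a group of short probes that together report 1 transcript sequence. RNA from the central nucleus of the amygdala, a forebrain region that takes part in fear and in the response to alcohol, was measured on 96 arrays of rats from 10 lines. The lines formed 5 pairs, each of 1 line selected for high alcohol intake (HAD1, HAD2, P, AA and sP, the preferring lines) and 1 selected for low intake (LAD1, LAD2, NP, ANA and sNP). They were HAD1 and LAD1 (9 and 10 arrays), HAD2 and LAD2 (10 and 10), P and NP (10 and 10), AA and ANA (10 and 10), and sP and sNP (8 and 9). The sources used here state no sex, age or exposure to alcohol. Animals of a line share descent, so each line is a single selection outcome, and p-values within a pair measure the spread between arrays of these lines.

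Class II molecules are pairs of an α and a β chain that carry peptides from swallowed proteins to the cell surface for CD4+ T cells. RT1-Da and RT1-Db1 encode the α and β chains of RT1-D, and RT1-Ba and RT1-Bb those of RT1-B. Cd74, the invariant chain, blocks the peptide groove and guides new class II molecules to the endosome. In brain, class II is known from microglia, from macrophages around vessels, and from cells of the meninges and choroid plexus, and interferon-γ raises it through the co-activator CIITA. CIITA acts through promoter elements called the X and Y boxes, which bind the RFX and NF-Y factors.

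Promoters are shown for RT1-Da, RT1-Ba and Cd74, chosen because 1370883_at of RT1-Da and 1370822_at, 1 of the 4 RT1-Ba probe sets, had the highest r with Cd74 across arrays. The other 3 RT1-Ba probe sets had r of -0.07, -0.15 and 0.29 with Cd74. Each sequence is the 200 bases before the gene's start in RefSeq's GRCr8 assembly, where all 5 members matched. Capitals mark a Y box core (ATTGG, or CCAAT where it lies on the other strand) and an X box core (GCAAC).
RT1-Da, chr20:4515215-4515414, plus strand: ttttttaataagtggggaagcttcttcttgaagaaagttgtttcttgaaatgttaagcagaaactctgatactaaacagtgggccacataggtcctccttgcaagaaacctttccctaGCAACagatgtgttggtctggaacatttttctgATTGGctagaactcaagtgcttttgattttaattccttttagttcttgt
RT1-Ba, chr20:4576857-4577056, plus strand: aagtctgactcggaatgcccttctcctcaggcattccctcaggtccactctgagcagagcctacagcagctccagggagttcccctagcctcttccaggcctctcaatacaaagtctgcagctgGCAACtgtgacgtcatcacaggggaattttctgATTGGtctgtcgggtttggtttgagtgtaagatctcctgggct
Cd74, chr18:56527006-56527205, plus strand: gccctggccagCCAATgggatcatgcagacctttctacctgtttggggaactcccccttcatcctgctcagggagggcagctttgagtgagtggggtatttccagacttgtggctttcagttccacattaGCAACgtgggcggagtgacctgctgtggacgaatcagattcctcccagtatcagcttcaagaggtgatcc
In RT1-Da the X core began 82 and the Y core 49 bases before the start, a spacing of 33 bases. RT1-Ba held the same spacing of 33 bases, at 76 and 43 bases before the start. RT1-Db1 on the minus strand held the cores at 112 and 80 bases, a spacing of 32 bases. RT1-Bb held a Y core at 61 bases and no X core, and Cd74 an X core at 70 bases with its Y core, on the other strand, farther upstream at 189 bases. On both strands, 29.2% of 33469 promoters held a Y core and 24.7% an X core within 200 bases. An X core followed on the same strand by a Y core that began 25 to 40 bases later was found in 0.442% of them (148). A match describes the letters only, and a missing match says nothing about a factor.

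Values are RMA values on a log2 scale, so 1 unit is a doubling. Arrays and lines were compared only on the same probe set. The log2 ratio of 3' to 5' GAPDH control probe sets set the pairs apart. It averaged 3.33 to 4.09 in the HAD and LAD lines and 0.20 to 0.43 in the other lines. Levels were therefore tested only within pairs, and what this split stems from was not tested. Each array was also placed between the lines of its pair by probe sets on numbered chromosomes, leaving out 18 and 20, which carry the members. On odd and on even chromosomes, the 100 that best separated the lines gave a score. By both scores, 16 of the 96 arrays lay on the side of the other line of their pair. These were 2 arrays of HAD1 and LAD1, 0 of HAD2 and LAD2, 4 of P and NP, 6 of AA and ANA and 4 of sP and sNP. The differences given here rest on the labels as they stand, and why these arrays lay on the other side (exchanged labels or mixed descent, for example) was not tested. LAD1 36 is called HAD1 in 1 of its labels and was kept as LAD1. Markers of the tissue were high, with median percentiles of mean level among all probe sets of 99.7 for 5 oligodendrocyte genes, 98.9 for 7 astrocyte genes and 89.7 for 12 genes of central amygdala neurons. Microglial markers stood at a median percentile of 67.4, against 15.4 for 3 B cell genes and 18.3 for 7 T and NK cell genes. It was 23.9 for 6 perivascular macrophage genes, 25.2 for 7 dendritic cell and monocyte genes and 26.5 for 7 choroid plexus genes. For 8 genes of meninges and fibroblasts it was 44.6. These percentiles rank different probe sets against each other and give only a rough placing.

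RT1-Da, the α chain of RT1-D, had the highest line median in HAD1 (8.45) and the lowest in ANA (6.89). Cd74 had its highest median in NP (8.54) and its lowest in sP (6.92). RT1-Db1 on 1370383_s_at was highest in NP (6.72) and lowest in LAD1 (5.24), and its other probe set, 1370382_at, lay between 4.11 and 4.37 in every line's median. The order of the 10 lines differed between probe sets of 1 gene. For RT1-Ba, 1392334_at and 1381593_x_at were highest in HAD1 and 1377334_at too, whereas 1370822_at was highest in AA and lowest in HAD2. RT1-Bb on 1371033_at was highest in ANA (6.72) and lowest in P (5.29). For 8 of the 10 probe sets, all 9 neighbours in the order of medians had overlapping ranges. The exceptions, 1377334_at of RT1-Ba and 1371065_at of RT1-Bb, overlapped in 8 of 9. The 1370382_at and 1371065_at probe sets were dim: over all arrays the mean of 1370382_at stood at the 0.451 percentile of all probe sets and that of 1371065_at at the 2.05 percentile, so little can be read from them.

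**Figure D1:**
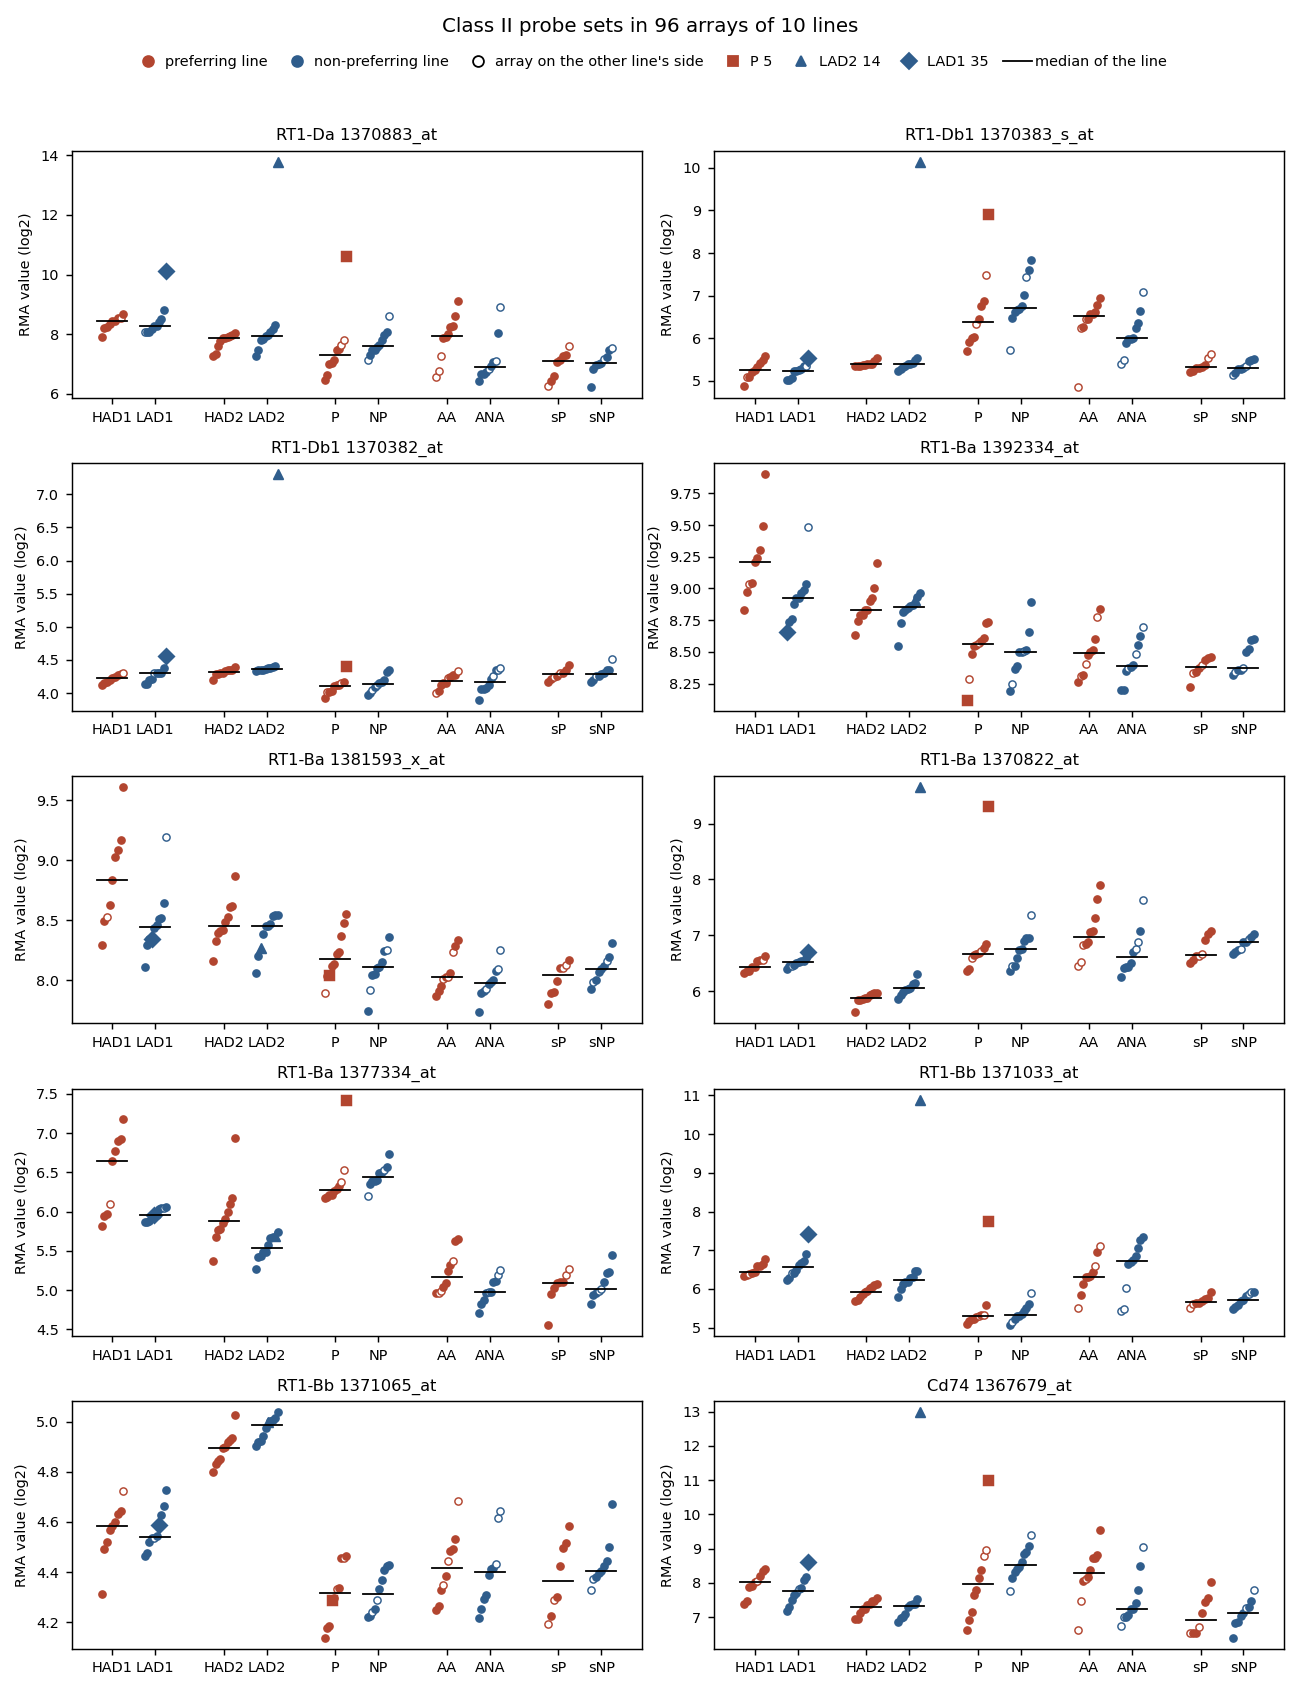
RMA value (log2, vertical axis) of the 10 class II probe sets in each of 96 arrays, by line (horizontal axis). Points are arrays sorted within a line, black bars are line medians, and hollow points are the 16 arrays on the other line's side; LAD2 14 (triangle) reached 13.78 for RT1-Da and P 5 (square) 10.64, far above their lines.

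A single array of LAD2 held the highest signal of the 96 arrays on RT1-Da, both RT1-Db1 probe sets, RT1-Ba 1370822_at, RT1-Bb 1371033_at and Cd74. On RT1-Ba 1370822_at its 9.65 stood close to the 9.32 of P 5. The highest array was HAD1 29 for 1392334_at (9.90) and 1381593_x_at (9.61), and P 5 for 1377334_at (7.43). In LAD2 14, RT1-Da stood at 13.78, against 7.27 to 8.31 in the 9 other LAD2 arrays, 57.6-fold above their median. Cd74 stood at 12.98, against 6.86 to 7.52, a 51.5-fold excess. RT1-Db1 was 26.8-fold higher on 1370383_s_at, RT1-Bb on 1371033_at 26.1-fold and RT1-Ba on 1370822_at 12.2-fold. On the dim RT1-Db1 probe set 1370382_at the level was 7.30, against 4.33 to 4.41 in the other LAD2 arrays. Both chains of both class II molecules and the invariant chain were thus high in 1 array. The other 3 RT1-Ba probe sets and 1371065_at of RT1-Bb were not raised there, each lying within the range of the other LAD2 arrays.

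Other immune genes of LAD2 14 stood high too. Plac8, a gene of myeloid and plasmacytoid cells, was 6.11 log2 units above the median of the other LAD2 arrays, Mx1, an interferon-induced antiviral gene, 2.63 units, and Ly86, a monocyte gene, 2.114 units. Of 12 microglial markers, 10 lay above every other LAD2 array (median difference 0.66), as did 12 of 16 interferon genes (median 0.44), 7 of 11 class I pathway genes (median 0.38) and 4 of 7 dendritic cell and monocyte genes (median 0.21). Of 3 B cell genes 1 did, of 7 T and NK cell genes 0, and of 6 perivascular macrophage genes 0 (median -0.05). Over all genes, 1193 of 14217 lay above every other LAD2 array. The peptide exchange gene RT1-DMb, beside the members in the genome, was 1.11 units higher.

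Liver transcripts were high in the same array and in 2 further LAD2 arrays. The mean of 12 liver genes, a list chosen after these values were seen, was 9.10 in LAD2 14, 8.91 in LAD2 15 and 8.83 in LAD2 16, against 5.17 to 7.37 in the 93 other arrays. Alb, the gene of serum albumin, stood at 13.50, 13.61 and 13.63 in these 3 arrays. Cd74 in LAD2 15 and LAD2 16 was 7.36 and 7.39, within the range of the remaining LAD2 arrays, and RT1-Da was 8.19 and 7.97. Neither of these genes stood apart in LAD2 15 or LAD2 16. What gave LAD2 14 its signal was not tested.

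In P 5, Cd74 stood at 11.02, against 6.62 to 8.95 in the 9 other P arrays, 9.36-fold above their median. RT1-Da was 11.3-fold, RT1-Ba on 1370822_at 6.30-fold, and RT1-Bb on 1371033_at 5.60-fold above theirs, and RT1-Db1 on 1370383_s_at 2.59 log2 units above. This array also carried choroid plexus transcripts. Of 7 choroid plexus genes, 5 lay above every other P array, with Ttr, the carrier of thyroid hormone in cerebrospinal fluid, 8.76 log2 units above their median. So did 7 of 8 genes of meninges and fibroblasts, led by Igf2 at 4.56 units, and 0 of 12 microglial markers. Of 11 class I pathway genes 8 did (median difference 0.44), and of 3 erythrocyte genes 2 (median 1.87). Over all genes, 2230 of 14217 lay above every other P array. LAD1 35 was high in RT1-Da (10.12, against at most 8.81 in the other LAD1 arrays, 3.56-fold above their median). Its Cd74 and RT1-Bb values of 8.62 and 7.43 (1371033_at) were also the highest of the line. In LAD1 35, 9 of 16 interferon genes lay above every other LAD1 array, with Mx1 1.42 units and Isg15 1.09 units above the median. Over all genes, 1448 of 14217 lay above every other LAD1 array. In bulk tissue, more cells of a type and more RNA per cell cannot be told apart, and the part of these other cell types in the class II signal was not tested.

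**Figure D2:**
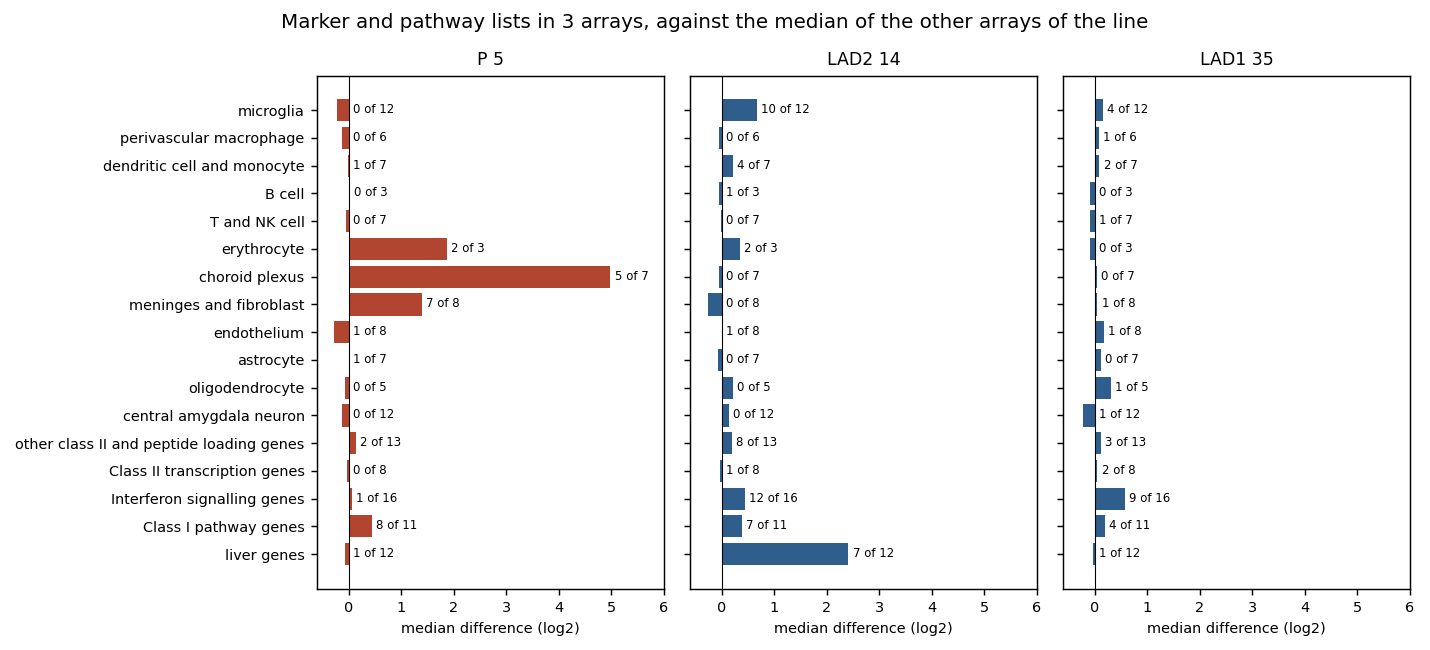
Median difference (log2, horizontal axis) of each marker or pathway list from the median of the other arrays of the line, in P 5, LAD2 14 and LAD1 35. Labels count the genes above every other array of the line; P 5 stood out in choroid plexus genes (5 of 7), LAD2 14 in microglial genes (10 of 12) and liver genes, which LAD2 15 and LAD2 16 shared, and LAD1 35 in interferon genes (9 of 16).

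RT1-Ba averaged higher in the HAD1 arrays than in the LAD1 arrays on 3 of its 4 probe sets, none past the test over all probe sets. On 1377334_at, HAD1 arrays ran from 5.81 over a median of 6.64 to 7.18, and LAD1 arrays from 5.87 over 5.95 to 6.06. In 6 of 9 HAD1 arrays the value exceeded every LAD1 array, and the HAD1 range enclosed that of LAD1. The difference was 0.51 log2 units (SE 0.15), a 1.42-fold excess (limma adjusted p = 0.119). On 1381593_x_at it was 0.37 (SE 0.15, limma adjusted p = 0.319) and on 1392334_at 0.29 (SE 0.12, limma adjusted p = 0.333), while 1370822_at differed by -0.05. RT1-Da ran from 7.91 over 8.45 to 8.68 in HAD1 and from 8.07 over 8.29 to 10.12 in LAD1, a difference of -0.11 (SE 0.20). Cd74 ran from 7.38 over 8.04 to 8.39 in HAD1 and from 7.19 over 7.76 to 8.62 in LAD1, a difference of 0.18 (SE 0.16). Both genes overlapped between the lines. Among all probe sets, 0.963% were called (299 of 31042), and 0 of the 10 members were, with 3 at an unadjusted p under 0.05. A fit of all 10 groups together, which pools the spread, called these 3 RT1-Ba probe sets. Limma adjusted p was 0.0107 for 1377334_at, 0.0189 for 1381593_x_at and 0.0482 for 1392334_at. HAD1 had the largest SD of the 10 lines on each (0.52, 0.41 and 0.32 in that order). Pooling with the tighter lines lowered the SEs to 0.13, 0.10 and 0.09, so these calls understate the HAD1 spread. In that fit 2.53% of all probe sets were called (785). Microglial markers ran lower in HAD1, with 2 of 12 called lower, 0 called higher and a median difference of -0.24, against -0.01 over all genes. Of 8 genes of meninges and fibroblasts 1 was called lower (median difference -0.30, 1 of 8 above 0), and of 6 perivascular macrophage genes 1 was called lower (median -0.12). Their part in the class II values was not tested.

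In HAD2 and LAD2, RT1-Ba on 1377334_at again ran higher in the preferring line. HAD2 arrays lay between 5.37 and 6.93 (median 5.88) and LAD2 arrays between 5.27 and 5.74 (median 5.53), with 8 of 10 HAD2 arrays above every LAD2 array. The difference of 0.41 (SE 0.13, 1.331-fold) did not pass (limma adjusted p = 0.0680). It passed without HAD2 8, the highest array (0.30, limma adjusted p = 0.0429), and without HAD2 9, the lowest (0.48, limma adjusted p = 0.0190). Leaving out 1 array at a time, a member was called only without HAD2 7, HAD2 8 or HAD2 9. Those fits called 1275, 1225 and 1129 of all probe sets. Without LAD2 14 this probe set did not pass (limma adjusted p = 0.0790). With all arrays, 4.09% of all probe sets were called (1271), and 0 of 10 members, 2 of them at an unadjusted p under 0.05.

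The remaining chains pointed the other way through LAD2 14. RT1-Da ran from 7.28 over 7.86 to 8.03 in HAD2 and from 7.27 over 7.95 to 13.78 in LAD2, a difference of -0.71 (SE 0.54, limma adjusted p = 0.520). Without LAD2 14 this difference was -0.12 (SE 0.13), and that of Cd74 was 0.07 (SE 0.10) in place of -0.51 (SE 0.52). RT1-Bb on 1371033_at kept a lower level in HAD2 without that array, from 5.70 over 5.93 to 6.14 in HAD2 against 5.78 over 6.18 to 6.47 in 9 LAD2 arrays. The difference was -0.27 (SE 0.08, limma adjusted p = 0.0669). RT1-Ba on 1370822_at ran from 5.62 over 5.88 to 5.97 in HAD2 and from 5.85 over 6.04 to 6.31 in those LAD2 arrays. It differed by -0.18 (SE 0.05, limma adjusted p = 0.0783), opposite in sign to 1377334_at of the same gene, which stood at 0.43 (SE 0.13) without LAD2 14. Ranges overlapped for each of these probe sets. Without LAD2 14, 3.61% of all probe sets were called (1120) and 0 of 10 members, with 5 members at an unadjusted p under 0.05. Of 12 microglial markers 1 was then called higher and 2 lower (median difference -0.06). Of 6 perivascular macrophage genes 2 were called higher, and of 7 dendritic cell and monocyte genes 1, with 0 lower in either list. Over all genes 3.24% were called. The part of these cells in the class II values was not tested.

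Between P and NP no member passed, and 0% of all probe sets did, with 1523 at an unadjusted p under 0.05, 0 of them members. Cd74 ran from 6.62 over 7.96 to 11.02 in P and from 7.76 over 8.54 to 9.39 in NP. RT1-Da ran from 6.48 over 7.30 to 10.64 in P and from 7.14 over 7.60 to 8.60 in NP. In both genes 1 P array, P 5, lay above every NP array while 4 (Cd74) and 5 (RT1-Da) lay below every NP array. The differences were -0.45 (SE 0.40) for Cd74 and -0.17 (SE 0.36) for RT1-Da, each with limma adjusted p = 0.999998. Without P 5 they were -0.77 (SE 0.28) and -0.52 (SE 0.19), with limma adjusted p = 0.824 for both. The 7 choroid plexus genes that marked P 5 had a median difference of 0.54 with all arrays and -0.01 without P 5 and the arrays on the other line's side.

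When the 4 arrays on the other line's side were left out with P 5, Cd74 and RT1-Da were lower in P. These arrays were chosen with their expression known, and their removal widens line differences by construction. Cd74 then ran from 6.62 over 7.65 to 8.37 in 7 P arrays and from 8.15 over 8.54 to 9.07 in 8 NP arrays, with 6 of the 7 below every NP array. The difference was -1.08 (SE 0.23), or 2.107-fold lower (limma adjusted p = 0.0205). RT1-Da ran from 6.48 over 7.03 to 7.49 in P and from 7.31 over 7.60 to 8.06 in NP, a difference of -0.63 (SE 0.15, limma adjusted p = 0.0486). RT1-Ba on 1377334_at ran from 6.17 over 6.22 to 6.33 in P and from 6.35 over 6.45 to 6.73 in NP. These 2 ranges did not overlap, and the difference of -0.24 (SE 0.06) stood just outside the threshold (limma adjusted p = 0.0515), with the opposite sign to HAD1 and HAD2. In this setting 1.68% of all probe sets were called (520), and 2 of 10 members. Of 12 microglial markers, Trem2 fell with them (-0.41, SE 0.08, limma adjusted p = 0.0141), and the list's median difference was -0.20, against 0.01 over all genes. The mean level of the microglial list was 9.14 to 9.48 in these P arrays and 9.33 to 9.65 in the NP arrays, and the part of microglia in the difference was not tested.

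RT1-Da and Cd74 averaged higher in the AA arrays than in the ANA arrays, and neither difference passed the test with all arrays. Cd74 ran from 6.61 over 8.28 to 9.54 in AA and from 6.73 over 7.23 to 9.05 in ANA. RT1-Da ran from 6.57 over 7.95 to 9.11 in AA and from 6.44 over 6.89 to 8.92 in ANA. The ranges overlapped in both genes, with AA higher by the median. The differences were 0.76 (SE 0.31, limma adjusted p = 0.948) for Cd74 and 0.71 (SE 0.32, limma adjusted p = 0.983) for RT1-Da. With all arrays, 0% of probe sets were called (1528 at an unadjusted p under 0.05) and 0 of 10 members, 3 of them at an unadjusted p under 0.05.

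Of the 6 arrays on the other line's side, the 3 of AA held the lowest RT1-Da values of that line (6.57, 6.77 and 7.27), and ANA 16 the highest of ANA (8.92), while ANA 18 and ANA 20 lay within the ANA range. Without them RT1-Da ran from 7.86 over 8.25 to 9.11 in 7 AA arrays and from 6.44 over 6.74 to 8.05 in 7 ANA arrays. Of the ANA arrays 6 lay below every AA array, and the difference was 1.342 (SE 0.23), 2.53-fold higher in AA (limma adjusted p = 0.00298). Cd74 ran from 8.06 over 8.73 to 9.54 in AA and from 7.01 over 7.23 to 8.48 in ANA, and rose by 1.17 (SE 0.24, 2.26-fold, limma adjusted p = 0.0116). RT1-Ba on 1370822_at ran from 6.85 over 7.07 to 7.89 in AA and from 6.24 over 6.44 to 7.08 in ANA, and rose by 0.70 (SE 0.16, 1.62-fold, limma adjusted p = 0.0300). RT1-Bb, the β chain that pairs with RT1-Ba, went the other way on 1371033_at. It ran from 5.83 over 6.30 to 6.95 in AA and from 6.65 over 6.85 to 7.34 in ANA, and fell by 0.62 (SE 0.15, limma adjusted p = 0.0390). The other 6 probe sets did not pass, and RT1-Db1 on 1370383_s_at differed by 0.44 (SE 0.12, limma adjusted p = 0.0784).

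Here 2.5% of all probe sets were called (775), against 4 of the 10 members, and the arrays left out were chosen by measured expression, so the count over all genes rose too. Of 12 microglial markers 0 were called, with a median difference of -0.02. Their mean level lay between 9.004 and 9.32 in the 7 AA arrays and between 8.97 and 9.47 in the 7 ANA arrays. Perivascular macrophage genes had a median difference of 0.24 (5 of 6 above 0) and oligodendrocyte genes one of -0.51 (0 of 5 above 0), with 0 called in either list. The part of these cell types in the class II values was not tested. Of 13 other class II and peptide loading genes, 0 were called higher, and 6 had a difference above 0. Among them RT1-DMb differed by 0.29 (SE 0.08, limma adjusted p = 0.0831). Ctss, a cathepsin that trims the invariant chain, was called lower (-0.27, SE 0.07, limma adjusted p = 0.0365). Ciita differed by 0.04 (SE 0.08). Whether the lines carry different alleles at the probes' target bases, which would alter binding to the array, was not tested.

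No member passed the test between sP and sNP. With all arrays the largest difference over the 10 probe sets was -0.10 for RT1-Da, which ran from 6.26 over 7.09 to 7.59 in sP and from 6.23 over 7.02 to 7.55 in sNP (SE 0.19). Cd74 ran from 6.52 over 6.92 to 8.02 in sP and from 6.40 over 7.13 to 7.78 in sNP, a difference of -0.06 (SE 0.21). The SE of Cd74 leaves room for a difference of this size or larger in either direction. Of all probe sets 0% were called (1341 at an unadjusted p under 0.05), and 0 of 10 members at either level. Without the 4 arrays on the other line's side, Cd74 differed by 0.20 (SE 0.23), RT1-Da by 0.0020 (SE 0.18) and 1377334_at of RT1-Ba by -0.13 (SE 0.11). Then 1.75% of all probe sets were called (542), and 0 of the 10 members.

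**Figure D3:**
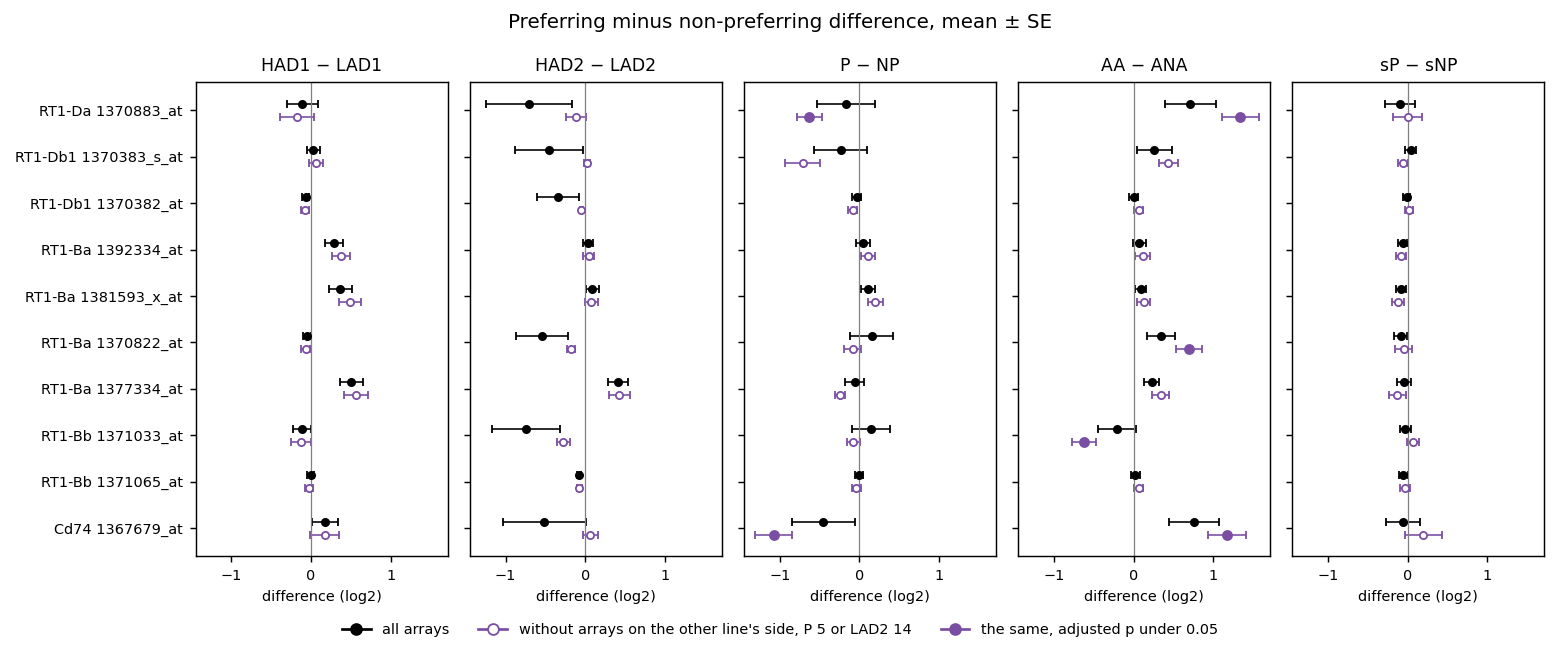
Preferring minus non-preferring difference (log2, horizontal axis) with its standard error for the 10 probe sets in each of 5 line pairs. Black points use all arrays, violet points leave out the arrays on the other line's side and P 5, or LAD2 14 in its pair, and filled violet points passed with limma adjusted p under 0.05, as for RT1-Da (1.342) and Cd74 (1.17) in AA and ANA.

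Over the 5 pairs, RT1-Ba on 1377334_at was the 1 member called for the mean difference. It averaged 0.21 (SE 0.06, 1.16-fold) higher in the preferring lines (limma adjusted p = 0.0409), with differences of 0.51, 0.41, -0.06, 0.23 and -0.04 in the order HAD1, HAD2, P, AA and sP, so it was positive in 3 of 5. Among all probe sets 0.986% were called (306), and 1 of 10 members. With the line pair as the replicate, the exact two-sided sign-flip permutation test gave p = 0.25, where the smallest p that 5 pairs allow is 0.0625. The call was lost without HAD1 and LAD1, without HAD2 and LAD2 or without AA and ANA. It was also lost without LAD2 14 and P 5 together (0.19, SE 0.05, limma adjusted p = 0.0530), where 0.925% of all probe sets (287) and 0 of 10 members were called. RT1-Da averaged -0.07 (SE 0.17) and Cd74 -0.02 (SE 0.17), with signs that differed between pairs.

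The test of whether the 5 differences vary called 4.54% of all probe sets (1409) and 0 of 10 members with all arrays. The nearest member was 1377334_at (limma F = 4.08, adjusted p = 0.0790). Without LAD2 14 and P 5, which widened the spread within their lines, it called 2 members, 1377334_at of RT1-Ba (limma F = 6.16, adjusted p = 0.00821) and Cd74 (limma F = 5.16, adjusted p = 0.0256), beside 4.3% of all probe sets (1336). RT1-Da gave limma adjusted p = 0.0979 in that fit.

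Across animals of a line, Cd74 and RT1-Da moved together. After each line's mean was subtracted, their Pearson r over 96 arrays was 0.91 and Spearman's rho 0.80, each with a permutation p = 1e-05, the smallest that 100000 permutations within lines can give (adjusted p = 6.4e-05 over 45 pairs of probe sets for r). Without the 2 arrays farthest from the median in Cd74, LAD2 14 and P 5, r was 0.80, and 0.77 with the line means recomputed. RT1-Da had the highest r with Cd74 of all 31041 other probe sets, with and without these 2 arrays. Of the 45 pairs of probe sets, 21 had an adjusted p under 0.05 and 12 did without LAD2 14 and P 5. The share among pairs of other probe sets is not given here, so these counts do not show co-variation particular to class II.

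The members fell into groups that their gene names do not give. The 15 correlations among Cd74, RT1-Da, both RT1-Db1 probe sets, 1370822_at of RT1-Ba and 1371033_at of RT1-Bb ran from 0.71 to 0.91. This set was picked after its values were seen and carries no test. Without LAD2 14 and P 5 the same correlations ran from -0.16 to 0.77, so most of their height rested on 2 arrays. Those that stayed above 0.5 were Cd74 with RT1-Da, Cd74 with 1370822_at of RT1-Ba (0.62), RT1-Da with 1370822_at (0.69) and Cd74 with 1370383_s_at of RT1-Db1 (0.53). Cd74 with 1371033_at of RT1-Bb stood at 0.33, and RT1-Bb with 1370822_at of RT1-Ba, its partner chain, at 0.02. The RT1-Ba probe sets 1392334_at and 1381593_x_at moved with each other (r = 0.83, rho = 0.74, adjusted p = 6.4e-05, and r = 0.77 without the 2 farthest arrays, HAD1 29 and LAD1 37) and not with Cd74 (r = -0.07 and -0.15). Probe sets annotated to RT1-Ba thus did not report 1 common signal in these arrays.

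**Figure D4:**
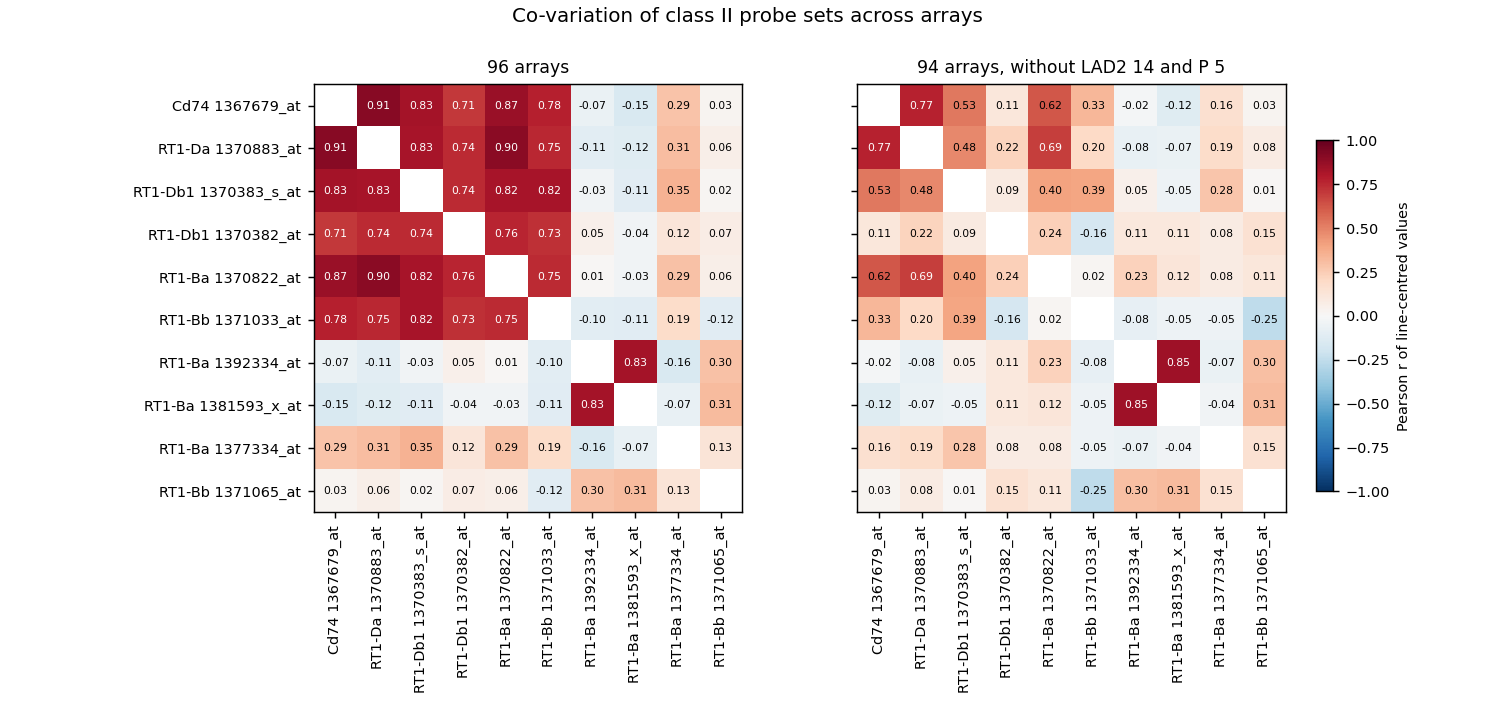
Pearson r between the 10 class II probe sets after subtracting line means, over 96 arrays (left) and over 94 arrays without LAD2 14 and P 5 (right). The block from Cd74 to RT1-Bb 1371033_at lay between 0.71 and 0.91 on the left and between -0.16 and 0.77 on the right, while the RT1-Ba pair 1392334_at and 1381593_x_at stayed at 0.83 and 0.85.

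Within single lines, the r of Cd74 with RT1-Da was positive in all 10. It was 0.59 in HAD1 and 0.76 in LAD1, 0.25 in HAD2 and 0.98 in LAD2, 0.88 in P and 0.90 in NP, 0.95 in AA and 0.92 in ANA, and 0.60 in sP and 0.81 in sNP. In LAD2 this rested on LAD2 14, since Spearman's rho there was 0.22. The r of LAD1 and of P also include an array far above its line in RT1-Da and highest in Cd74. These were LAD1 35 (RT1-Da 10.12, next 8.81, and Cd74 8.62) and P 5 (RT1-Da 10.64, next 7.82, and Cd74 11.02). The r of these lines without that array is not given here. With permutations in lines of 10 arrays and exact permutation in smaller ones, it passed after adjustment over 45 pairs in LAD1, NP, AA and ANA (adjusted p = 0.0484, 0.0148, 4.5e-04 and 0.0300). In AA and ANA the arrays on the other line's side widen the spread that this r rests on. RT1-Bb on 1371033_at followed Cd74 in LAD1 (0.78) and LAD2 (0.997), where LAD1 35 and LAD2 14 were the highest arrays in both genes. The r was 0.23 in AA and 0.25 in ANA, where RT1-Bb and Cd74 differed between the lines in opposite directions.

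**Figure D5:**
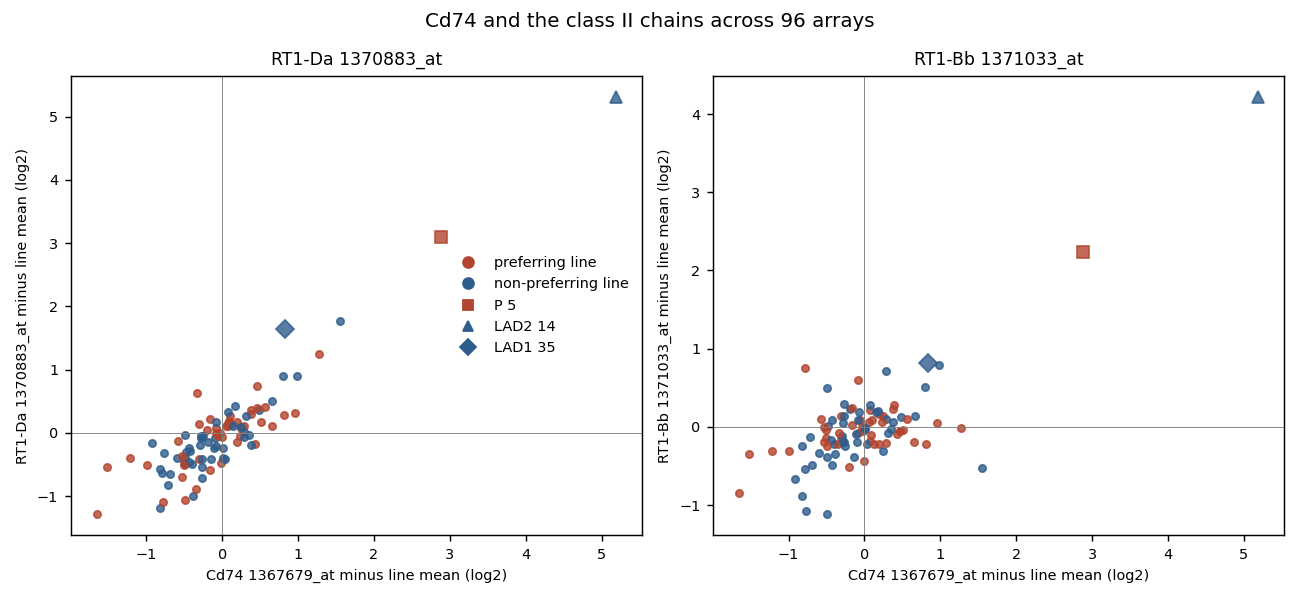
RT1-Da (left) and RT1-Bb 1371033_at (right) against Cd74 in 96 arrays, each minus its line mean (log2). LAD2 14 (triangle) and P 5 (square) lie far out on both axes; r was 0.91 for RT1-Da and 0.78 for RT1-Bb with them, and 0.77 and 0.33 without them.

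Genes outside the set were ranked by r with the mean of the members' brightest probe sets, over 96 line-centred arrays. For RT1-Ba the brightest was 1392334_at, whose r with Cd74 was -0.07. The 10 most alike were Fcgr3a, an Fc receptor of microglia and macrophages (0.79), Mx1 (0.74), LOC100910973 (0.72), Tspo, a mitochondrial protein used as a marker of glial activation (0.72), Fcnb, a myeloid lectin (0.72), Plac8 (0.72), Cxcl13, a chemokine that draws B cells (0.68), Scin (0.67), Psmb9, an immunoproteasome subunit (0.66), and Cd68, a lysosomal protein of macrophages (0.66). Without LAD2 14 and P 5, Fcgr3a stood at 0.54 as rank 9 and Psmb9 at 0.49 as rank 29, whereas Cd68 stood at -0.06 and Scin at 0.17. The highest gene was then C3, the central complement component (0.60), followed by Rpain (0.59), Glra1 (0.58) and Ctsz, a lysosomal cathepsin (0.58). These values are a description over arrays that share processing and line.

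Among 16 lists compared with the members' mean in the same way, the class I pathway genes followed most closely (r = 0.64, adjusted p = 4.8e-04, rho = 0.45, adjusted p = 3.2e-04, permutation within lines). Their r was 0.44 without the 2 farthest arrays, LAD2 14 and P 5. Choroid plexus genes gave r = 0.47 (adjusted p = 0.0342, rho = 0.43, 0.37 without the 2 arrays) and the 13 other class II and peptide loading genes r = 0.40 (adjusted p = 0.0342, rho = 0.30, 0.27 without them). Interferon genes gave r = 0.51 (adjusted p = 0.0360) with a rho of 0.23 (adjusted p = 0.135), and r = 0.26 without them. Erythrocyte genes gave r = 0.30 (adjusted p = 0.0342) with a rho of 0.11, and 0.04 without them. Microglial markers had r = 0.45 (adjusted p = 0.0857) and dendritic cell and monocyte genes 0.61 (adjusted p = 0.110), while perivascular macrophage genes had -0.09.

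The rest of the pathway showed few calls between lines. Of 13 other class II and peptide loading genes, 1 was called with all arrays: RT1-DMb, the β chain of the molecule that exchanges peptides on class II, was lower in HAD2. It averaged 8.50 ± 0.19 over the 10 HAD2 arrays and 8.97 ± 0.38 over the 10 LAD2 arrays (SD), a difference of -0.47 (SE 0.12, limma adjusted p = 0.0291). Without LAD2 14 it was -0.36 (SE 0.08, limma adjusted p = 0.00637). Of the 10 genes nearest to the RT1 members on chromosome 20, 3 were called, all lower in HAD2: RT1-DMb, Gpsm3 (-0.32, SE 0.06, limma adjusted p = 0.00238) and Btnl3, a butyrophilin-like gene (-0.19, SE 0.05, limma adjusted p = 0.0188). By gene, 305 of 14217 were called higher and 228 lower in this pair. The 8 class II transcription genes, 16 interferon genes and 11 class I pathway genes gave 0 calls in every pair and for the mean with all arrays. Ciita differed by -0.07 in HAD1, -0.11 in HAD2, -0.07 in P, 0.01 in AA and -0.06 in sP, a mean of -0.06 (SE 0.03, limma adjusted p = 0.645).

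Leaving out the doubted arrays brought single genes of these lists past the test. Without LAD2 14, Psmb8, an immunoproteasome subunit, was higher in HAD2 (0.62, SE 0.12, limma adjusted p = 0.00170) and Nlrc5, a co-activator of class I genes, lower (-0.11, SE 0.03, limma adjusted p = 0.0317). Without P 5 and the arrays on the other line's side, RT1-DMb (-0.35), Ctss (-0.28) and Psmb9 (-0.41) were lower in P, with limma adjusted p = 0.0212, 0.0331 and 0.0470. Without the 6 arrays of AA and ANA, Mx2 was higher in AA (1.64, SE 0.16, limma adjusted p = 9.6e-06), and Psmb8 (-0.86, limma adjusted p = 2.8e-05) and Creb1 (-0.94, limma adjusted p = 2.7e-04) were lower. Over all genes 2.08% were called in that set, 1.41% for P and NP and 3.24% for HAD2 and LAD2.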

How the data were processed

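Central amygdala RNA of 96 rats was measured on Affymetrix rat arrays. Per the labels, biotin-labelled cRNA was made from 25 ng of total RNA in 2 cycles. RMA, named in the submitters' processing notes, gave the log2 values the authors deposited. The sources used here do not state its version or if all pairs entered 1 normalization. No detection calls were used, and the number of arrays limits precision. Without 57 control probe sets, 31042 remained, of which 20826 carry 1 gene symbol, 436 several, and 9780 are not listed. Symbols were matched through RefSeq's GRCr8 table (20758 matched, 0 changed). A gene in a list was represented by its brightest probe set.

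The arrays of each pair were fitted separately with limma 3.58.1 in R 4.3.3 (moderated variances, intensity trend, two-sided), with Benjamini-Hochberg adjustment over all probe sets and a threshold of 0.05. The 5 differences were averaged, and their variation tested (F), in 1 fit of all 10 groups. Differences are preferring minus non-preferring. Correlations used values minus their line mean, with 100000 permutations within lines (exact in single lines under 10 arrays). For the side of each array, 100 probe sets that best separated the lines were picked without that array, on odd and on even chromosomes, leaving out chromosomes 18 and 20. An array was set apart when both scores fell on the other line's side. P-values measure the spread between arrays, and the labels name an animal for each.

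The members and lists were chosen with earlier results of these data known. The rule for named genes takes all member probe sets, at most 3 called genes per list and pair, Ciita, and the 10 genes most like the members. Same-numbered P and NP arrays had a correlation of deviations over 0.1 in 5 of 10 pairs, and sP and sNP in 3 of 8, so numbers were not taken as pairs. Scripts were tested on simulated data.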

Additional observations from a re-analysis of the deposited data

Results flagged for a closer look

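Within a line, the highest or lowest array was set against the nearest other array by Dixon's criterion, which chance meets in about 1 in 20 groups. Of 100 groups of a line and a probe set, 20 met it, and 12 of these came from 2 arrays. The probe sets were correlated, so the groups are not independent, and the share over all probe sets is not given here. In P 5, 476 of 31042 probe sets lay over 1 log2 unit above every other P array. In LAD2 14, 52 lay as far above every other LAD2 array.

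LAD2 14 was the highest LAD2 array in 6 probe sets: RT1-Da at 13.78, RT1-Db1 at 10.14 (1370383_s_at) and 7.30 (1370382_at), RT1-Ba at 9.65 (1370822_at), RT1-Bb at 10.89 (1371033_at) and Cd74 at 12.98. P 5 was the highest P array in 6: RT1-Da at 10.64, RT1-Db1 at 4.41 (1370382_at), RT1-Ba at 9.32 (1370822_at) and 7.43 (1377334_at), RT1-Bb at 7.77 (1371033_at) and Cd74 at 11.02. The part of other cell types in these values was not tested.

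LAD1 35 was the highest LAD1 array for RT1-Da at 10.12. LAD1 37, which lay on the side of HAD1 by other genes, was the highest LAD1 array for RT1-Ba at 9.48 (1392334_at) and 9.19 (1381593_x_at), the probe sets that ran higher in HAD1. HAD2 8 was the highest HAD2 array for 1377334_at of RT1-Ba at 6.93, and HAD2 2 the lowest for 1370822_at at 5.62. AA 19, on the side of ANA by other genes, was the lowest AA array for RT1-Db1 at 4.86 (1370383_s_at). sP 3 was the lowest sP array for 1377334_at at 4.56, and sNP 5 the highest sNP array for 1371065_at of RT1-Bb at 4.67, a probe set near the bottom of the array's range.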

How the results depend on the processing

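Counts of called members moved under these settings. In 1 fit of all 10 groups, HAD1 against LAD1 called 3 of 10 members (785 of all 31042 probe sets) and HAD2 against LAD2 called 1 (1324 of all probe sets). Leaving out 1 array at a time, HAD2 against LAD2 ranged from 0 to 1, with 1 called without HAD2 7, HAD2 8 or HAD2 9 (1275, 1225 and 1129 of all probe sets). Without P 5 and the arrays on the other line's side, P against NP called 2 (520 of all probe sets). Without such arrays AA against ANA called 4 (775 of all probe sets). The mean of the 5 differences called 0 without HAD1/LAD1, without HAD2/LAD2, without AA/ANA, and without LAD2 14 and P 5. The variation of the differences called 2 without arrays on the other line's side (3353 of all probe sets) and 3 with array weights (3972). It called 1 without AA/ANA (1246) and 2 without LAD2 14 and P 5 (1336). Correlated pairs of member probe sets numbered 12 of 45 without LAD2 14 and P 5, with the share among other probe sets not given. Within single lines they numbered 1 in HAD1, 9 in LAD1, 1 in HAD2, 4 in LAD2, 0 in P, 2 in NP, 4 in AA, 4 in ANA, 0 in sP and 0 in sNP, over fewer arrays each. Among the values that changed sign were HAD2 minus LAD2 for RT1-Db1 1370383_s_at (-0.53 to 0.018 when 1 array was left out, the highest without LAD2 14), P minus NP for RT1-Ba 1370822_at (-0.12 to 0.22) and RT1-Bb 1371033_at (-0.10 to 0.20), each lowest without P 5, sP minus sNP for RT1-Ba 1370822_at (0.0018 with the GAPDH ratio as covariate) and for RT1-Db1 1370383_s_at (-0.062 without arrays on the other line's side), RT1-Da (0.0020), RT1-Bb 1371033_at (0.064) and Cd74 (0.20) likewise, HAD2 minus LAD2 for Cd74 (0.065 without LAD2 14), and r of the members with erythrocyte genes (-0.017 without LAD2 14 and P 5). Beyond the settings' own construction the cause was not tested. With the replicate number as a block, P minus NP was -0.45 (SE 0.33) for Cd74 and sP minus sNP -0.05 (SE 0.21), with 0 members called in either pair, and the block changed no call. Of 479 differences of single probe sets under other settings 34 changed sign, and 40 of 960 when 1 array was left out. Over all probe sets, HAD1 against LAD1 called 299, against 785 in 1 fit of all groups, 700 with array weights, 796 without arrays on the other line's side, 180 without LAD1 36 and 4 with LAD1 36 counted as HAD1. Where all arrays gave 0, 1 fit of all groups gave 168 in P against NP, 203 in AA against ANA and 2 in sP against sNP. Leaving out arrays on the other line's side gave 502 in P against NP, 775 in AA against ANA and 542 in sP against sNP. For the mean of the differences 306 became 946 without those arrays, and for their variation 1409 became 3353. Near-background probe sets (1370382_at, 1371065_at) limit what small differences show.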
